A study of Mus musculus with 8 samples.

Results

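Adamtsl2, the fibrillin genes Fbn1 and Fbn2, the genes of latent TGF-beta binding proteins Ltbp1 and Ltbp3, the fibulin genes Fbln1, Fbln2 and Fbln5, and the elastin gene Eln were followed in embryonic mouse heart ventricles with a deletion of Mib1 directed to cardiomyocytes. These 9 genes were picked by name, with earlier results of the same comparison in view, and all 9 were found among the 13869 genes of the table. The groups were Mib1 mutants at E14.5 (embryonic day), carrying a floxed Mib1 allele and Cre recombinase driven by the cardiac troponin T (TnT) promoter, and wild-type embryos of the same experiment and age. Polyadenylated RNA of ventricles from 16 hearts per genotype was pooled into 4 libraries per group, so a library is a pool of embryos and not an embryo. The labels do not state the zygosity of the floxed allele. The TnT promoter drives Cre in cardiomyocytes, so other ventricular cells are not targeted. Mib1 encodes a ubiquitin ligase that acts on Notch ligands in the signal-sending cell.

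Fibrillins polymerise into extracellular microfibrils, and elastin is laid down on these to form elastic fibres. Latent TGF-beta binding proteins tether the inactive growth factor complex to microfibrils, fibulins link elastin, microfibrils and basement membranes, and ADAMTSL2 is a secreted glycoprotein without protease activity that binds fibrillin 1 and LTBP1. In humans, mutations of ADAMTSL2 and FBN1 cause short-stature disorders with thickened heart valves, and mutations of FBN1 also cause Marfan syndrome. In the developing heart most of these genes are used by endocardial, valve, epicardial and vascular mesenchymal cells, and elastin above all by the great arteries and valves.

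Adamtsl2 was higher and Fbln1 was lower in the mutant pools, and these genes stood for the opposite ends of the set. Their promoters are shown because they belong to the members with the highest and the lowest difference. The sequences are the 250 bases before the RefSeq start site on assembly GRCm38.p6, both from the plus strand, with Adamtsl2 at chr2:27079129-27079378 and Fbln1 at chr15:85205699-85205948. Capitals mark matches on either strand to 4 short motifs: CAGAC, the CAGA box bound by Smad3 and Smad4; TGGGAA, the core of the site of RBPJ, the DNA-binding partner of Notch; TATAAA, the TATA box; and GGGCGG, the GC box. On the opposite strand the capitals read as the reverse complement. For Fbln1 the first of 2 RefSeq entries is shown.
Adamtsl2: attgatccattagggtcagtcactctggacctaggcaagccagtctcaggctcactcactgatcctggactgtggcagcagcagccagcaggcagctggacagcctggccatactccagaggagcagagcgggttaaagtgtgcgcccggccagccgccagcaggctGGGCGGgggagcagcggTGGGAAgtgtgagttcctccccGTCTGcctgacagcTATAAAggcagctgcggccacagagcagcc
Fbln1: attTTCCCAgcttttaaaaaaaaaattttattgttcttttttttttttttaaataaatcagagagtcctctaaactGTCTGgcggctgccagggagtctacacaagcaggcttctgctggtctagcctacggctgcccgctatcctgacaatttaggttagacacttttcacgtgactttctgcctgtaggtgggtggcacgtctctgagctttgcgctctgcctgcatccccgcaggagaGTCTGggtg
The Adamtsl2 window held a single match to each of the 4 motifs, with TATAAA at 30 to 25 bases and TGGGAA at 66 to 61 bases before the start. The Fbln1 window held CAGAC on the opposite strand at 174 to 170 and at 9 to 5 bases and TGGGAA on the opposite strand at 247 to 242 bases, and neither TATAAA nor GGGCGG. No matches overlapped. Among 32851 RefSeq promoter entries cut to the same 250 bases, CAGAC was present in 42.2%, TGGGAA in 21.6%, TATAAA in 12.4% and GGGCGG in 32.7%. RefSeq entries were matched by symbol for 7 of the 9 members, Fbn2 and Eln being the others.

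The libraries held 6307634 to 11506082 recovered counts, and a floor of 3 counts amounts to 0.265 to 0.472 CPM, counts per 1000000 at the library size implied by the authors' normalization. Mib1 stood at 106, 103, 95.3 and 96.3 CPM in the mutant pools, against 150.3, 166, 160.5 and 167 CPM in the wild-type pools, and the groups did not overlap. Cardiomyocyte markers were abundant in every pool, their sum lying between 32901 and 35526 CPM in mutants and between 33953 and 37966 CPM in wild type. Of these 6 markers none was called in limma, 2 had an unadjusted p under 0.05 and voom called 1; Tnnt2, lower in all mutant pools, stood at −0.21 on the log2 scale (limma adjusted p = 0.0658). Each group holds several cell types, so fewer cells of a type and less RNA per cell cannot be told apart. All p-values reflect only variation among pools, which may be partly technical, as the labels do not tie pools to litters.

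Of the 9 members, 2 were higher and 1 was lower in mutants at an adjusted p under 0.05 in the limma fit over all 13740 genes tested, and 6 were not called. Over all genes tested 2.24% were called in either direction, 0.99% higher and 1.25% lower. In 3 members the groups did not overlap, 2 with all mutant pools higher and 1 with all lower, as in 8.89% of tested genes, 4.26% with all mutant pools higher and 4.63% with all lower. Because the members were picked with this comparison in view, their counts, differences and adjusted p-values are a description of these pools and support nothing by themselves. The called member nearest to the threshold was Fbn2, with a limma adjusted p of 0.0378. The uncalled member of smallest adjusted p was Fbln2, at 0.143.

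**Figure D1:**
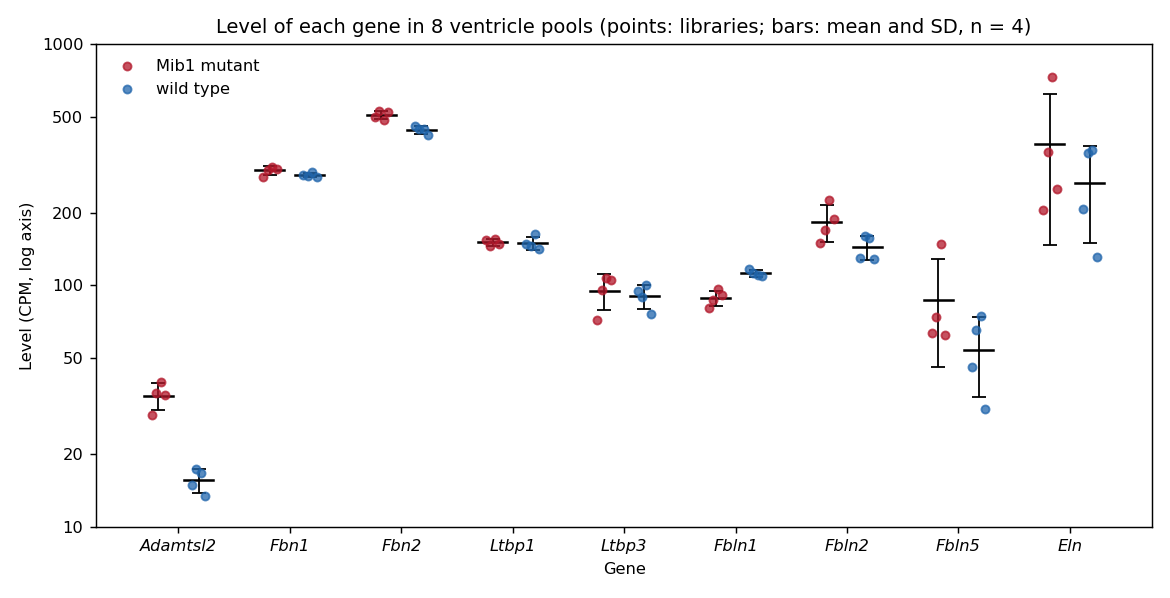
Level of the 9 genes in each of the 8 pools, in CPM on a log axis; points are libraries, mutant in red left of wild type in blue, and bars give the mean and SD of 4. The groups do not overlap for Adamtsl2, Fbn2 and Fbln1, while Eln runs from 131 to 729 CPM.

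Adamtsl2 (ENSMUSG00000036040), the gene of the fibrillin and LTBP1 binding glycoprotein, showed 28.9, 35.7, 39.7 and 35.2 CPM in the mutant pools 1 to 4, against 14.8, 17.3, 16.7 and 13.4 CPM in the wild-type pools 1 to 4. Every mutant pool was above every wild-type pool, the lowest mutant value being 28.9 CPM and the highest wild-type value 17.3 CPM, from 103 to 328 counts per library. The means were 34.9 ± 4.44 CPM in mutants and 15.6 ± 1.76 CPM in wild type (SD, n = 4 each), a 2.23-fold rise (log2 difference 1.16 ± 0.11, SE; limma adjusted p = 3.54e-05). It was the gene with the 20th smallest p of the fit. Leaving out any single pool kept the call, with differences from 1.09 to 1.25.

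Of the fibrillins, Fbn2 rose slightly and Fbn1 was not called. Fbn1 (ENSMUSG00000027204), which encodes the main microfibril protein after birth, showed 282, 301, 309.6 and 305 CPM in mutants and 288, 284, 295 and 281 CPM in wild type. The ranges overlapped, and the difference was 0.06 with a 95% interval of −0.04 to 0.16 on the log2 scale. Fbn2 (ENSMUSG00000024598), the fibrillin gene used most in embryos, showed 499.7, 527, 486 and 520.3 CPM in mutants and 458, 443, 443 and 420.1 CPM in wild type. Here the lowest mutant pool lay above the highest wild-type pool, with means of 508 ± 18.6 CPM in mutants and 441 ± 15.7 CPM in wild type (SD, n = 4 each). This 1.15-fold rise (0.20 ± 0.05, SE; limma adjusted p = 0.0378) was called only without mutant pool 1 or 3 among the 8 omissions of a single pool; without mutant pool 2 or 4 or any wild-type pool it was not, with an adjusted p of up to 0.133. With a replicate block, a paired fit, its adjusted p was 0.0985, though no label pairs the pools of the same number. Fbn2 lies on chromosome 18, as Mib1 does. On that chromosome 1.47% of 341 tested genes were called higher and 2.35% lower, against 0.978% and 1.22% of 13399 tested genes elsewhere, and its part in the result was not tested.

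Within a library the ratio of Fbn2 to Fbn1 in CPM, which is not corrected for length, was 1.77, 1.75, 1.57 and 1.71 in mutants, against 1.59, 1.56, 1.50 and 1.497 in wild type. The lowest mutant ratio was thus below the highest wild-type ratio. The sum of both fibrillins was 808 ± 22.5 CPM in mutants and 728 ± 19.6 CPM in wild type (SD, n = 4 each).

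The latent TGF-beta binders were not called. Ltbp1 (ENSMUSG00000001870), whose product ADAMTSL2 binds, showed 154, 146, 156 and 148 CPM in mutants and 148, 145, 163 and 142 CPM in wild type, with a difference of 0.01 and a 95% interval of −0.10 to 0.13 on the log2 scale. Ltbp3 (ENSMUSG00000024940), a binder that is needed for secretion of latent TGF-beta and is known from bone and outflow tract, showed 71.9, 95.4, 107 and 105 CPM in mutants and 94.5, 89.9, 100.01 and 76.4 CPM in wild type. Its lowest value was in mutant pool 1, and its interval was wider, −0.18 to 0.31 around 0.06. The sum of both was 246 ± 16.3 CPM in mutants and 239.7 ± 18.4 CPM in wild type (SD, n = 4 each).

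Of the fibulins, Fbln1 fell and Fbln2 and Fbln5 were not called. Fbln1 (ENSMUSG00000006369), which encodes a fibulin of endocardial cushions, valves and basement membranes, showed 80.9, 87.3, 96.2 and 90.8 CPM in mutants and 117, 112, 110.1 and 109 CPM in wild type. All mutant pools were below all wild-type pools, with means of 88.8 ± 6.41 CPM in mutants and 112 ± 3.54 CPM in wild type (SD, n = 4 each). This was −0.34 ± 0.06 on the log2 scale (SE; limma adjusted p = 0.00717). The call survived omission of any single pool and was lost when eBayes was run without a trend (adjusted p = 0.0551).

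Fbln2 (ENSMUSG00000064080), a fibulin gene of valves, coronary vessels and epicardium-derived mesenchyme, showed 149.8, 169, 225 and 188 CPM in mutants and 130.3, 160.2, 157 and 129 CPM in wild type. Mutant pools 2, 3 and 4 were above all wild-type pools, and mutant pool 1 was inside their range. The difference was 0.34 with a 95% interval of 0.11 to 0.57 on the log2 scale, and it was not called (limma adjusted p = 0.143) except when mutant pool 1 was left out (0.43, adjusted p = 0.0342). Within a library the ratio of Fbln2 to Fbln1 in CPM was 1.85, 1.94, 2.34 and 2.08 in mutants, against 1.11, 1.42, 1.42 and 1.18 in wild type. These ratios did not overlap, averaging 2.05 ± 0.21 in mutants and 1.28 ± 0.16 in wild type (SD, n = 4 each). Fbln1 alone did not overlap between the groups either, so the ratios are no separate result.

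Fbln5 (ENSMUSG00000021186), which encodes the fibulin that organises elastic fibre assembly, showed 63.4, 74.2, 148 and 62.04 CPM in mutants and 45.8, 65.4, 74.7 and 30.7 CPM in wild type. The groups overlapped, and mutant pool 3 was highest and wild-type pool 4 lowest. The difference was 0.66 with a 95% interval of 0.07 to 1.26 on the log2 scale (limma adjusted p = 0.281). It was 0.37 without mutant pool 3 and 0.42 without wild-type pool 4. A paired fit with the replicate number as block called it (adjusted p = 0.0188), but no label pairs the pools of the same number.

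Eln (ENSMUSG00000029675), the gene of tropoelastin, showed 205, 357, 729 and 249.8 CPM in mutants and 207, 355, 364 and 131 CPM in wild type. As for Fbln5, mutant pool 3 was highest, wild-type pool 4 was lowest and the groups overlapped. The difference was 0.48 with a 95% interval of −0.28 to 1.24 on the log2 scale (limma adjusted p = 0.575). It was 0.11 without mutant pool 3 and 0.18 without wild-type pool 4, so the size of this difference rested largely on each of these pools.

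**Figure D2:**
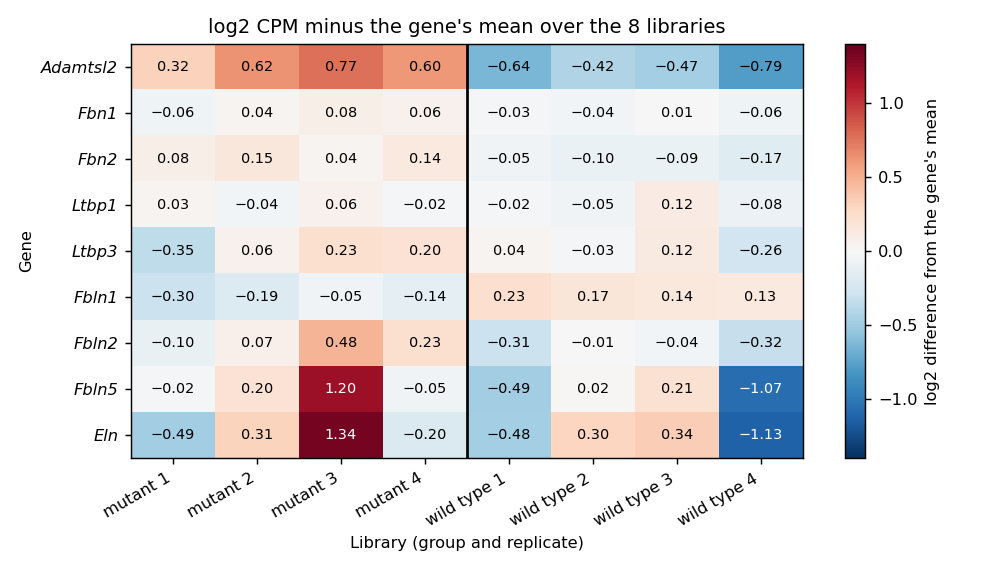
Each cell gives the log2 CPM of a gene (rows) in a library (columns, mutant pools left of wild-type pools) minus its mean over the 8 libraries. Adamtsl2 separates the genotypes, whereas Eln and Fbln5 share a pattern across libraries with highest values of 1.34 and 1.20 in mutant pool 3.

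The spread among pools of the same genotype, into which the difference between genotypes does not enter, differed widely between members. After removal of the group means, Eln had a within-group SD of 0.76 on the log2 scale and ranked 29th, and Fbln5 of 0.58 and ranked 50th, among 11116 genes with a symbol and a mean of at least 5 CPM, whose median SD was 0.12. Fbn1, Fbn2, Ltbp1 and Fbln1 had SDs of 0.05, 0.05, 0.07 and 0.08 and were steadier than the median gene. Adamtsl2, Fbln2 and Ltbp3 lay above it, at 0.18, 0.21 and 0.22.

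Eln and Fbln5 varied together across pools. Eln differed 5.55-fold and Fbln5 4.83-fold between the highest and lowest of the 8 libraries, while the ratio of Eln to Fbln5 in CPM stayed between 3.23 and 5.43, a 1.68-fold range. By root mean square difference of within-group deviations over the 8 libraries, the gene most like Eln among 11115 others was Fbln5, at 0.20 on the log2 scale. This search was added after the values were seen, and it is a description of 8 libraries. Of 7 smooth muscle and pericyte markers 2 were called higher, Acta2 by 0.36 and Cnn1 by 0.30 on the log2 scale. The other 5 were not called, Tagln standing at 0.51, Cspg4 at 0.15, Rgs5 at 0.13, Pdgfrb at −0.06 and Myh11 at −0.46. Myh11 averaged 2.54 CPM in mutants and 2.49 CPM in wild type, and none of the 7 was at 0 in any pool. Both calls were lost without a trend (adjusted p = 0.0688 for Acta2 and 0.121 for Cnn1), and that of Cnn1 also without mutant pool 2 or any wild-type pool (up to 0.0913). The markers summed to 1477 to 1636 CPM in mutants and 1158 to 1335 CPM in wild type, of which Acta2 made up 1088 ± 50.7 CPM in mutants and 846 ± 71.2 CPM in wild type (SD, n = 4 each). Among the mutant pools, Tagln, Myh11, Cnn1 and Pdgfrb were highest in pool 3, Acta2 in pool 1, Rgs5 in pool 2 and Cspg4 in pool 4. Among the wild-type pools, Pdgfrb and Cspg4 were lowest in pool 4 and the other 5 in pool 1 or 2. The part of these markers in the Eln and Fbln5 values was not tested.

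Levels of different genes can be set side by side only per length. Divided by the longest coding transcript of GENCODE M21, Eln was highest at 99.97 ± 61.8 CPM per kilobase in mutants and 68.6 ± 29.7 CPM per kilobase in wild type (SD, n = 4 each), followed by Fbn2 at 46.04 ± 1.68 in mutants and 39.9 ± 1.43 in wild type and Fbln2 at 38.3 ± 6.67 in mutants and 30.1 ± 3.50 in wild type. Fbln1 came next in mutants with Fbn1, at 24.3 ± 1.75 and 25.0 ± 1.01, values that differed by less than their SDs; in wild type Fbln1 stood at 30.7 ± 0.967, within the SD of Fbln2, and Fbn1 at 24.0 ± 0.492. Ltbp1 followed at 22.6 ± 0.726 in mutants and 22.4 ± 1.37 in wild type, and Ltbp3 at 18.3 ± 3.14 in mutants and 17.4 ± 1.94 in wild type. Fbln5 stood at 14.9 ± 7.07 in mutants and 9.29 ± 3.38 in wild type, and Adamtsl2 was lowest at 9.66 ± 1.23 in mutants and 4.31 ± 0.489 in wild type. Other neighbours closer than the larger of their SDs were Eln and Fbn2 in both genotypes, and Fbln1 and Ltbp1, Ltbp3 and Fbln5, and Fbln5 and Adamtsl2 in mutants.

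The other microfibril and elastic fibre genes mostly did not pass the test. Of 20 listed partners 19 were in the table and tested, of which 1 rose, 1 fell and 17 were not called, with a list median of 0.06 against 0.00092 on the log2 scale for all genes. Emilin2, an elastin and microfibril interface glycoprotein gene, showed 116, 139.7, 129 and 129 CPM in mutants and 109.96, 107, 101 and 103 CPM in wild type, a rise of 0.28 ± 0.06 (SE; limma adjusted p = 0.0246). It was not called without mutant pool 2 or 4, without any of the wild-type pools, or with the replicate block (adjusted p = 0.0551). Mmrn2, an endothelial matrix gene of the same EMILIN and multimerin family, showed 62.9, 66.2, 75.6 and 69.9 CPM in mutants and 87.5, 93.4, 94.2 and 86.2 CPM in wild type, a fall of 0.40 ± 0.06 (SE; limma adjusted p = 0.00404) in groups that did not overlap. Of 8 endocardial and endothelial markers 2 were called lower, Plvap by 0.65 and Npr3 by 0.46 on the log2 scale, and 6 were not called. Of the 8 markers 7 lay below 0 and 5 had an unadjusted p under 0.05 in limma. Among the uncalled, Tie1 stood at −0.28, Cdh5 at −0.14, Emcn at −0.02 and Nfatc1 at 0.05. Npr3 lost its call without a trend, with an adjusted p of 0.050005. The 8 markers summed to 993 to 1025 CPM in mutants and 1149 to 1181 CPM in wild type; none was at 0 in any pool, and their part in the Mmrn2 and Fbln1 values was not tested.

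Paralogues of the members were not called. Ltbp4, a binder of elastic tissues, stood at −0.08 on the log2 scale and Ltbp2 at 0.16, and the short fibulin genes Efemp1 and Efemp2 at 0.10 and 0.11; Fbln7, at about 1 CPM, stood at 0.25 ± 0.38 (SE). Among the lysyl oxidases, which cross-link elastin and collagen, Lox stood at 0.32 ± 0.12 (SE; limma adjusted p = 0.209, and 0.0479 without mutant pool 4), Loxl1 at 0.05, Loxl2 at 0.07 and Loxl3 at −0.09. The microfibril-associated genes Mfap2, Mfap4 and Mfap5 stood at 0.16, 0.06 and 0.13, and Emilin1 at −0.07.

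None of 9 genes of ADAMTS-like proteins and microfibril-binding ADAMTS proteases was called at an adjusted p under 0.05 in limma (1 of 9 had an unadjusted p under 0.05, and voom called 0), with a list median of 0.07. The gene of smallest p was Adamtsl3, whose values were 16.9, 14.1, 9.58 and 15.3 CPM in mutants and 10.4, 9.21, 5.98 and 10.9 CPM in wild type (0.62 ± 0.20, SE; limma adjusted p = 0.145). Its groups overlapped through mutant pool 3, without which it was called (0.79, adjusted p = 0.0315), as it was with the replicate block (adjusted p = 0.0179). Adamtsl1 stood at 0.12, Adamtsl4 at −0.27, Adamtsl5 at 0.25 and Thsd4, which binds fibrillin 1, at −0.14.

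**Figure D3:**
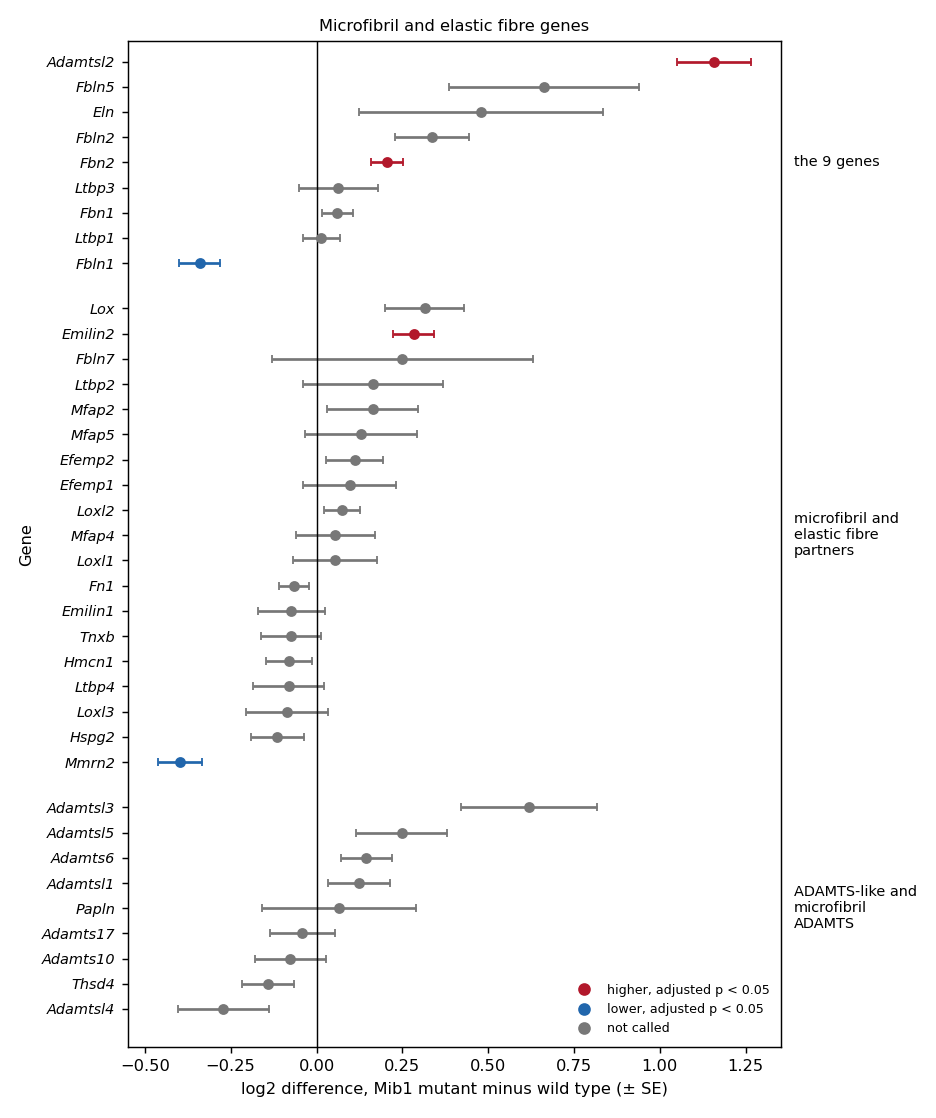
Log2 difference of each gene, Mib1 mutant minus wild type, with its SE, for the 9 genes, the microfibril and elastic fibre partners and the ADAMTS-like list; red points were called higher, blue points lower and grey points not called. Adamtsl2 at 1.16 lies farthest to the right, and Mmrn2 at −0.40 and Fbln1 at −0.34 farthest to the left.

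Genes that act with latent TGF-beta were read from 3 lists. Of 10 ligand, receptor and Smad genes 1 rose and 9 were not called (list median 0.01). Smad2, which encodes a receptor-activated Smad and lies on chromosome 18, showed 65.2, 62.3, 65.2 and 55.9 CPM in mutants and 48.4, 49.4, 49.0 and 54.2 CPM in wild type, a rise of 0.31 ± 0.07 (SE; limma adjusted p = 0.0292). It was not called without mutant pool 1 or 2, without wild-type pool 1, 2 or 3, or with the replicate block (adjusted p = 0.0816). The ligand genes Tgfb1, Tgfb2 and Tgfb3 stood at −0.04, 0.20 and 0.01. Of the 10 genes 6 lay above 0 and 4 below, and 4 had an unadjusted p under 0.05 in limma. Among the uncalled, Tgfb2 had a limma adjusted p of 0.0928. The receptor gene Eng stood at −0.18 (limma adjusted p = 0.0792) and Smad3 at −0.14 (limma adjusted p = 0.316). Of 12 genes that handle or release latent TGF-beta, 11 were tested and none was called in limma (2 had an unadjusted p under 0.05, and voom called 0). The gene of smallest p was the integrin subunit gene Itgb3 at 0.30 ± 0.10 (SE, limma adjusted p = 0.141).

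Of 7 genes that TGF-beta is known to induce, 2 rose, none fell and 5 were not called, with a list median of 0.27 against 0.00092 for all genes. Skil, which encodes the Smad co-repressor SnoN, showed 77.9, 80.7, 70.5 and 74.7 CPM in mutants and 50.4, 56.2, 65.4 and 56.9 CPM in wild type. Pmepa1, a feedback inhibitor of the pathway, showed 39.5, 50.1, 49.4 and 48.7 CPM in mutants and 32.3, 34.9, 36.2 and 34.8 CPM in wild type. Neither gene overlapped between the groups, which 4.26% of all tested genes did with all mutant pools higher. The rise was 0.41 ± 0.08 for Skil (SE; limma adjusted p = 0.0109), called whichever pool was omitted, and 0.44 ± 0.08 for Pmepa1 (adjusted p = 0.0119), not called without mutant pool 2 (0.0505) or wild-type pool 1 (0.0563). Smad7 stood at 0.32, Tgfbi at 0.27 and Ccn2 at −0.07.

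**Figure D4:**
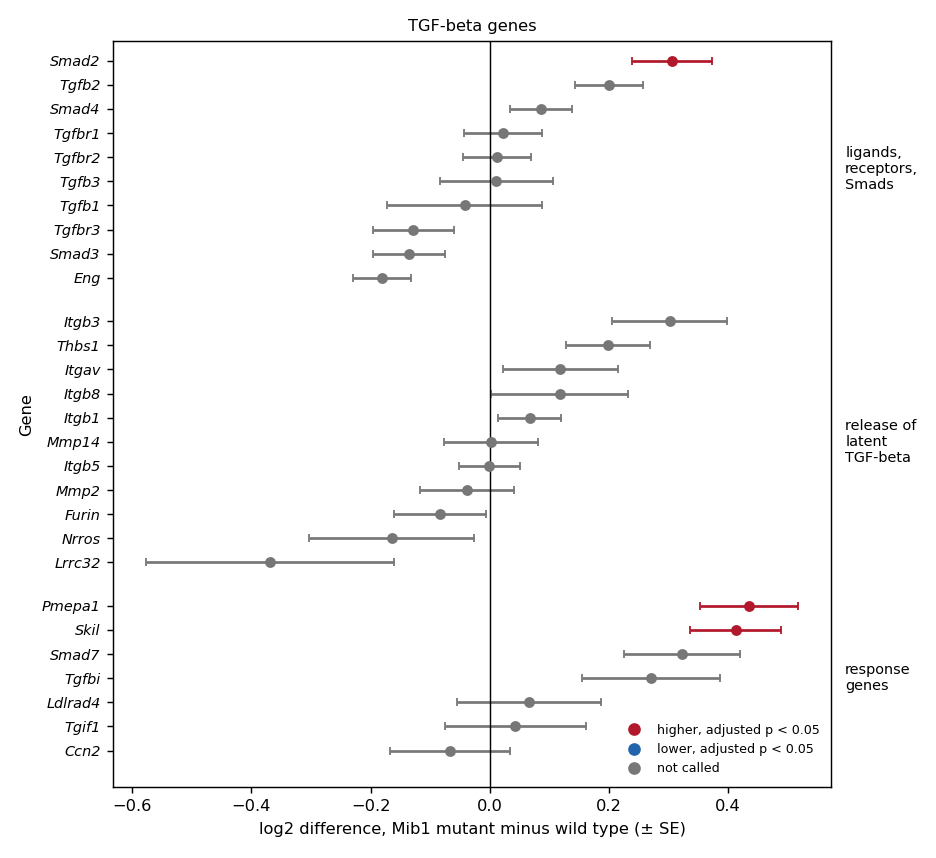
Log2 difference of each gene, Mib1 mutant minus wild type, with its SE. Shown are TGF-beta ligands, receptors and Smads, genes that handle or release latent TGF-beta, and response genes. Smad2, Skil and Pmepa1, in red, were called higher and no gene was called lower.

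The mesenchymal and epicardial lists held no called marker. Of 12 mesenchymal markers none was called in limma (0 had an unadjusted p under 0.05, and voom called 0), their sum was 3963 to 4463 CPM in mutants and 4156 to 4530 CPM in wild type, and none was at 0 in any pool. None of 6 epicardial markers was called in limma either (2 had an unadjusted p under 0.05, and voom called 0), with sums of 188 to 208 CPM in mutants and 179 to 191 CPM in wild type. Of 8 macrophage markers 3 were called lower, namely Lyz2 by 0.88, Tyrobp by 1.15 and C1qc by 0.86. All 8 lay below 0, and 7 had an unadjusted p under 0.05 in limma. The list summed to 51.1 to 63.0 CPM in mutants and 81.8 to 97.9 CPM in wild type. C1qc was not called without mutant pool 1, 2 or 4 or wild-type pool 1, 3 or 4 (adjusted p up to 0.0964), or without a trend (0.0726). Erythroid markers summed to 677 to 1104 CPM in mutants and 1148 to 1410 CPM in wild type. All 5 lay below 0, and 4 had an unadjusted p under 0.05 in limma. Of the 5 only 1, Hba-a1, was called, lower by 0.55 (limma adjusted p = 0.0482). Hba-a1 was not called without mutant pool 1 or 2 or any wild-type pool (adjusted p up to 0.1495), nor in 6 of 14 other settings, among them quantile normalization (0.0708), total-count scaling (0.0591), no filter on low values (0.0503) and robust eBayes (0.248). Their part in the members' values was not tested.

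The genes whose profile over the 8 libraries was nearest to that of Adamtsl2, by root mean square difference of centred log2 CPM among 11115 genes, were Kif1a (0.13), a kinesin gene, Ass1 (0.18), an arginine synthesis gene, and Htra1 (0.19), which encodes a secreted serine protease. This centring keeps the difference between genotypes, so the nearest genes share the direction of Adamtsl2 or Fbln1 by the way they were chosen. Htra1 averaged 51.3 ± 8.15 CPM in mutants and 29.4 ± 3.43 CPM in wild type (SD, n = 4 each). Nearest to Fbln1 were Hid1 (0.04), Ndufb7 (0.04), a gene of respiratory complex I, and Nomo1 (0.05).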

How the data were processed

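The authors deposited 1 table of 13869 Ensembl genes in 8 columns, named as normalized counts. The submitters' processing notes name cutadapt 1.2.1, RSEM 1.16, Bowtie2 0.12.7 (version as named), limma, edgeR and build mm9. Judged from the values, the deposited numbers are a score: log2 CPM with a prior of 0.5 counts, multiplied by a constant per library (15.97 to 16.07) so that each column sums to 1000000. The constant was taken as the gap between the lowest distinct values divided by the log2 of 3. After division the counts behind 100% of values were whole within 0.001. CPM are those counts over the normalized library size that the deposited values imply.

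A table of gene names gave symbols for 13428 Ensembl IDs; chromosomes, lengths and exon overlaps came from GENCODE M21. Members' exons overlap genes of the opposite strand for Fbn1 (Gm9913, 2442 bases), Fbn2 (129) and Eln (267); no source used here states strand-specific counting, so such reads cannot be told apart. limma 3.58.1 in R 4.3.3 (lmFit, eBayes with trend, group only) was run on log2 CPM of the 13740 genes with a mean of at least 0. P-values are two-sided, with Benjamini-Hochberg adjustment, and calls are at 0.05. Members, lists and tests were chosen with earlier results of these data known. Named were the members, their paralogues, lysyl oxidases, Mfap genes and Emilin1, called genes of each list or the smallest p, and nearest profiles. TGF-beta ligands, Eng, Smad3, Smad7, Tgfbi, Ccn2, uncalled markers and the neighbours of Eln were named after their values were seen. Some items, with the results that need them, are not reported here. The pipeline was tested on simulated data. The 95% intervals are those of the limma fit, and the 3-count floor covers counting error only.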

Additional observations from a re-analysis of the deposited data

Results flagged for a closer look

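In groups of 4 pools, 7 of 96 groups (48 named genes in both genotypes) held a pool whose gap to the nearest other exceeded Dixon's 95% critical value as a share of the range, which chance alone gives in about 1 group of 20. Fbln5 in mutant pool 3 stood at 148 CPM against 62.04 to 74.2 CPM in the other mutant pools, and Mfap4 in the same pool at 75.6 CPM against 50.3 to 53.7 CPM. The binder genes Ltbp2 and Ltbp4 stood low in wild-type pool 4, Ltbp2 at 8.07 CPM against 15.2 to 16.5 CPM and Ltbp4 at 169 CPM against 200.6 to 204 CPM in the other wild-type pools, while Smad2 stood high there, at 54.2 CPM against 48.4 to 49.4 CPM. In mutant pool 1, Adamtsl1 stood at 17.6 CPM against 18.7 to 18.8 CPM, from 200 counts, and Pmepa1 at 39.5 CPM against 48.7 to 50.1 CPM in the other mutant pools.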

How the results depend on the processing

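Adamtsl2 was called in all 22 alternatives. Fbln1 was called in all but eBayes without a trend. Fbn2 lost its call in that setting, at a threshold of 0.01, with the replicate block and in 6 of 8 single-pool omissions. Without a trend, limma called 70 genes higher and 109 lower over all genes in place of 136 and 172, 1 member higher and 0 lower, and 0 list genes higher in place of 4; no library differs there, only the variance prior. At a threshold of 0.1 it called 252 higher and 299 lower, and 2 list genes lower; at 0.01, 54 higher and 65 lower, 1 member higher and 0 list genes higher. With a library left out, 64 to 208 genes were called higher and 81 to 269 lower, the most without mutant pool 3 (208 and 269) and the fewest without wild-type pools 1, 2 and 3 (65, 64 and 75 higher, 81, 83 and 86 lower), mutant pool 2 leaving 67 higher; 1 to 3 members were called higher and 1 to 5 list genes. Directions near 0 turned in Ltbp1 under quantile normalization (−0.00019). With libraries left out, ranges crossed 0 for Ltbp1 (−0.0098 to 0.056), Ltbp3 (−0.014 to 0.19), Ltbp2 (−0.077 to 0.28), Ltbp4 (−0.16 to 0.042), Loxl1 (−0.10 to 0.15), Mfap4 (−0.077 to 0.12) and Emilin1 (−0.15 to 0.030), all uncalled. The cause was not tested. With the longest transcript of any type, the level of Adamtsl2 was 5.86 CPM per kilobase in mutants and 2.62 in wild type. Scaling moved the median of all genes by at most 0.01.

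Replicate numbers occur in both groups, but same-numbered pools had correlations of deviations between −0.04 and 0.10 across genes. Best resemblance to the own number held for 0 mutant pools and 1 wild-type pool, that of replicate 3. The labels do not pair same-numbered pools, and so few pools cannot decide whether these share a preparation. With the replicate block 104 genes were called higher and 136 lower; Fbn2 had an adjusted p of 0.0985, Emilin2 of 0.0551 and Smad2 of 0.0816, while Fbln5 (0.0188) and Adamtsl3 (0.0179) were called. Total counts of 6307634 to 11506082 put the largest 3-count floor at 0.472 CPM, far below every member.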

Other observations

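After Fbln5, the genes whose within-group deviations over the 8 libraries were nearest to those of Eln were Scand1, Sfrp2, Col2a1 and Adamts2, with root mean square differences of 0.35, 0.36, 0.38 and 0.40 on the log2 scale, in a search added after the values were seen. Sfrp2, which encodes a secreted Wnt modulator, showed 49.4, 57.0, 87.4 and 58.3 CPM in mutants and 34.0, 47.6, 58.4 and 30.6 CPM in wild type. Col2a1, a collagen gene of cartilage and embryonic valve mesenchyme, showed 20.7, 23.3, 39.7 and 23.0 CPM in mutants and 21.8, 29.6, 33.2 and 22.0 CPM in wild type. Adamts2, a procollagen-processing protease gene, showed 21.2, 27.1, 41.0 and 24.3 CPM in mutants and 23.5, 26.1, 28.0 and 20.5 CPM in wild type. All 3 were highest in mutant pool 3 among the mutants and in wild-type pool 3 among wild type, the pools in which Eln was also highest in each group. They were chosen for closeness to Eln in these libraries, so the shared highest pools are no separate result.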
